A study of Rattus norvegicus with 3 samples.

Results

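The 32 genes described here are high-confidence autism risk genes, chosen by name from the symbols that the deposited gene lists carry. All 32 were found among 29772 genes. The rule uses names and no measured value, but the names were chosen with earlier results of these data known. Variants that disrupt one copy of such genes are linked in people to autism and intellectual disability. Many of the encoded proteins open, mark or read chromatin, or act as transcription factors, and others sit at synapses, turn proteins over or restrain cell growth. In the developing cortex, radial glia are the stem cells that line the ventricle, intermediate progenitors are their short-lived dividing offspring, and newborn excitatory neurons leave the cycle and mature as they settle into layers.

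The cells came from the cerebral cortex of wildtype rat embryos, freshly dissociated with papain, and their RNA was sequenced cell by cell in droplets, as 3 libraries that carry the labels E14, E16 and E18, for embryonic days 14, 16 and 18. The series asks, by its title, how developmental timing relates to cortical neuron production. With 1 library per label there are no replicates, and no p-value is given. All intervals are 95% intervals that cover counting error only. The protocol text of the labels also describes cultured cells and a sort for live human cells, and which of these steps the rat cells went through is not stated in the sources used here.

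The libraries held 62740631, 80974234 and 73727823 unique molecular identifiers (UMIs, counted RNA molecules) in the order E14, E16, E18, the order kept for all lists of 3 values below. After filtering, 4286, 4977 and 5431 cells remained, with a median of 11193, 12276 and 10475 UMIs per cell. The libraries shared 12 to 17 cell barcodes per pair. The genes that mark the age of radial glia went against the labels. Levels are given as CPM, the standard scale of counts relative to the total UMIs of the cells summed. A list of early radial glia genes summed to 457.2, 1268 and 648.7 CPM, and a list of late radial glia genes to 4605, 1661 and 2510 CPM, so the library labelled E14 looked oldest and that labelled E16 youngest. Label, age and library therefore cannot be told apart, and each library is named below by its label only.

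Cells were clustered without the 32 genes and clusters were named from fixed markers. Radial glia-like cells numbered 399, 2146 and 1704, intermediate progenitor-like cells 456, 421 and 1417, newborn excitatory neuron-like cells 1421, 615 and 1231, and maturing excitatory neuron-like cells 1771, 0 and 688. For brevity these classes are called by the cell type alone. Different clusters filled a class in different libraries. Newborn neurons were an upper layer-like cluster and a cluster of 517 cells led by Sstr2, Negr1 and Cxcl12 in the library labelled E14. They were a cluster led by Calb1, Calb2 and Lhx9 in that labelled E16, and 1 cluster that was given no layer name in that labelled E18. Those leading genes are against all other cells. Against the other excitatory clusters alone, the cluster led by Sstr2 was led by Cxcl12, Ppp1r17 and Mfap4. Sstr2 and Eomes, both among the fixed markers of intermediate progenitors, were among its 10 leading genes. All newborn neuron values of the library labelled E14 include these cells. Maturing neurons were 1 upper layer-like and 1 deep layer-like cluster in the library labelled E14 and a deep layer-like cluster in that labelled E18. In the library labelled E16, 1161 cells stayed unnamed, in a cluster led by Ung, Cdc6 and Wnt8b and one led by Fgf17, Fgf8 and Zic4.

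The promoters of the members with the highest and lowest ratio of newborn neurons to radial glia are shown as examples of both ends of the first comparison below. The RefSeq promoter table used here (build GRCr8) matched 22 of the 32 members. Of these, Myt1l and Kdm6b had the highest ratios and Ctnnb1 and Naa15 the lowest, and the window of Ctnnb1 is not shown because it appears to reach the coding start. Each sequence runs 5′ to 3′ on the gene's strand, from 250 bases before to 50 bases after the annotated gene start. Capitals mark any of 5 motifs on either strand. They are the E-box CAGCTG and the E-box CAGATG, which bHLH factors can bind, the core AAGTTT bound by Myt1l, the stretch CAGCACC of the REST site and the GC box GGGCGG. Myt1l lies at chr6:51898832-51899131 on the plus strand, Kdm6b at chr10:54640965-54641264 on the minus strand and Naa15 at chr2:137608633-137608932 on the plus strand.
Myt1l: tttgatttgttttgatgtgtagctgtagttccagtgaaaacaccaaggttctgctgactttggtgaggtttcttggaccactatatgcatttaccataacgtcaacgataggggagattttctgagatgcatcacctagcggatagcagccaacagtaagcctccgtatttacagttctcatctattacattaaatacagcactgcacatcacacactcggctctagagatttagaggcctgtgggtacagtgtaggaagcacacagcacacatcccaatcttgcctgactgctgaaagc
Kdm6b: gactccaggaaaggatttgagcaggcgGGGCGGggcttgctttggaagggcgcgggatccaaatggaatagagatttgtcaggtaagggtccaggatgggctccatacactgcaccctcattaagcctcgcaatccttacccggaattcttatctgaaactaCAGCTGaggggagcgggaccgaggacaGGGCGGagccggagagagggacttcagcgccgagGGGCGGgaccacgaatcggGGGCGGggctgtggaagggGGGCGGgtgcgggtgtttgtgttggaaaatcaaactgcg
Naa15: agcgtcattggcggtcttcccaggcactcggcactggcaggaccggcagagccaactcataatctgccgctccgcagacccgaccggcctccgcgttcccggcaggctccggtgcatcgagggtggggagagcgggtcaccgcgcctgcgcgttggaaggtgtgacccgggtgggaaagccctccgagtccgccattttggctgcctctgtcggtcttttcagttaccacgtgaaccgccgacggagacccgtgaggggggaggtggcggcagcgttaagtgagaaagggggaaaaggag
Kdm6b held 5 copies of GGGCGG and 1 of CAGCTG, and Myt1l and Naa15 held none of the motifs. The G and C content was 44.3% for Myt1l and 65.7% for Naa15. GGGCGG lay in 33.1% of 33469 RefSeq promoters and in 16 of the 29 promoters (55.2%) of the matched members, since a gene can have several. The median G and C content was 51.7% over all promoters and 61.0% over those 29, and its part in the share of this GC-rich motif was not tested. CAGCTG lay in 15.1% of all promoters and 6 of the 29, and CAGATG in 16.6% and 1. AAGTTT lay in 14.7% and 7, and CAGCACC in 6.78% and 3. An annotated start need not be the start used in these cells. A match is a run of letters, not a shown binding site.

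Most of the 32 genes were detected in every class of the excitatory lineage. In the 11 combinations of class and library, between 29 and 31 members reached 5 CPM, the minimum for a comparison. Shank3, a scaffold of the postsynaptic density, did not reach it in any of them, at 0.607 to 2.23 CPM. Shank2, a related scaffold, lay between 1.93 and 11.7 CPM. Single-cell counts come from the 3′ end of transcripts, and the levels of different genes are not compared with each other here.

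**Figure D1:**
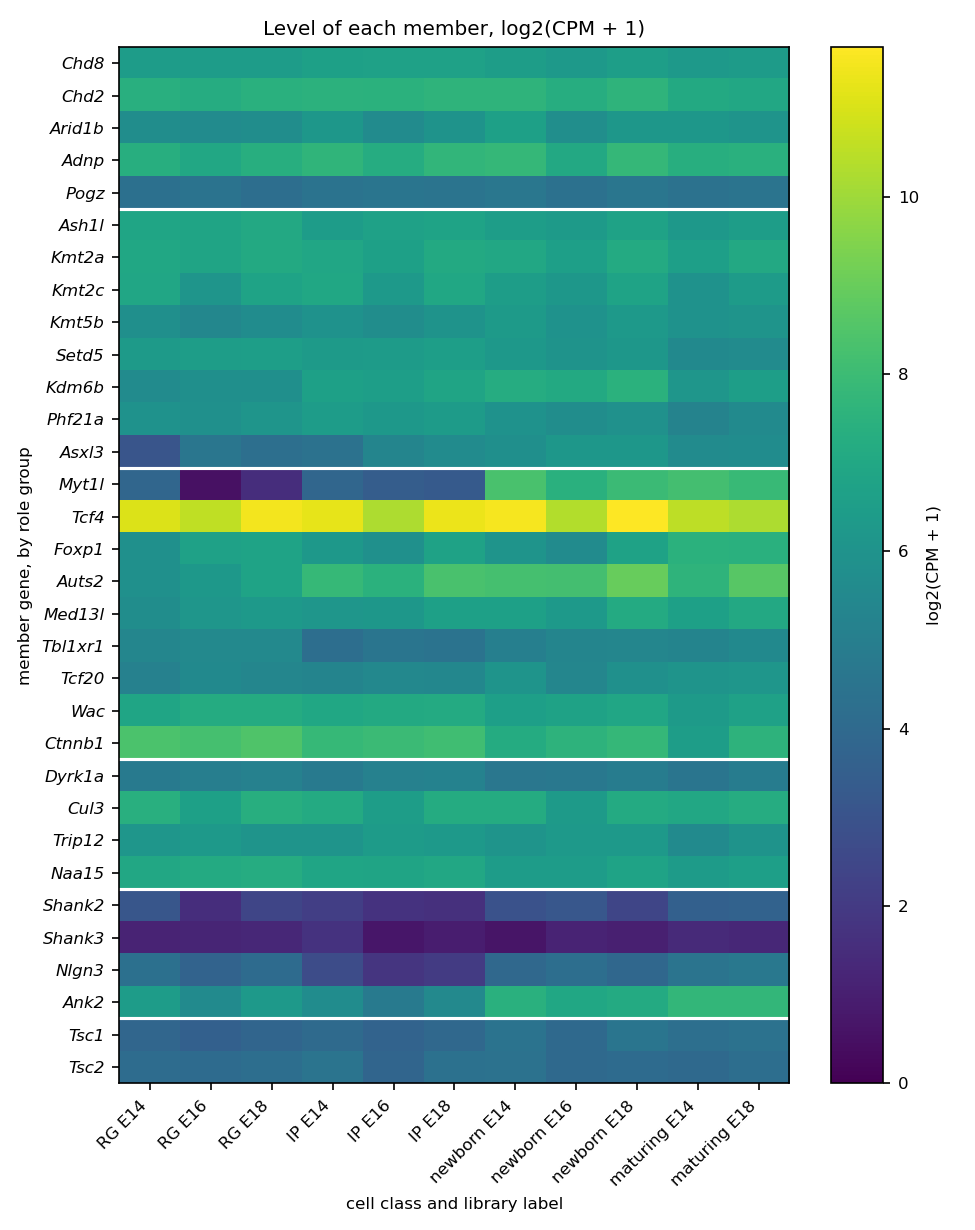
Level of each of the 32 members as log2(CPM + 1) (colour) in radial glia (RG), intermediate progenitors (IP), newborn and maturing excitatory neurons of the libraries labelled E14, E16 and E18 (columns). White lines separate role groups, in the order chromatin remodelling, histone modification, transcription factors and cofactors, protein modification and turnover, synapse and membrane, and growth signalling brake. Colours are to be compared within a row, where Myt1l changes from 13.4, 0.460 and 1.87 CPM in radial glia to 325, 171 and 249 CPM in newborn neurons.

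From radial glia to newborn neurons, 5 members were at least 1.5-fold higher and 1 was at least 1.5-fold lower in all 3 libraries, of 30 members tested in each. A gene was tested where the mean of its levels in both classes reached 5 CPM. Over all genes tested the same way, 14.3% were higher and 19.9% were lower. The higher members were the transcription factor Myt1l, the transcription and chromatin regulator Auts2, the chromatin regulators Asxl3 and Kdm6b, and the membrane adaptor Ank2, and the lower member was Ctnnb1. By any amount, 11 members were higher and 8 lower in all 3 libraries, against 33.6% and 44.6% of all genes. The median log2 ratio over the members tested was 0.167, -0.0750 and 0.141, and over all genes -0.14, -0.07 and -0.08. Mitochondrial genes took 5.29%, 3.56% and 4.39% of the UMIs of radial glia and 7.39%, 5.81% and 5.82% of those of newborn neurons. The part of RNA quality in the ratios was not tested.

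**Figure D2:**
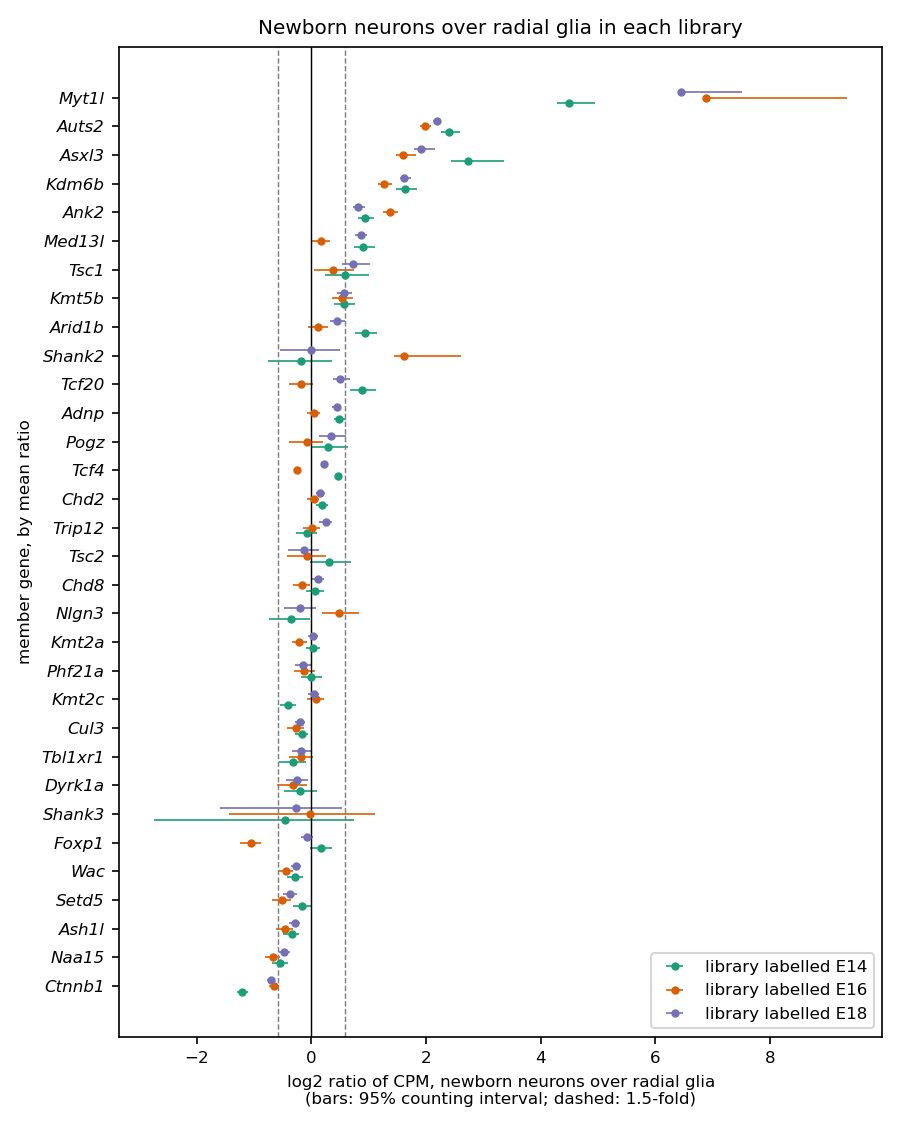
Log2 ratio of the level in newborn excitatory neurons to that in radial glia (x axis, 1 CPM added to both levels) for each member (y axis, ordered by mean ratio) in the libraries labelled E14, E16 and E18 (colours). Bars are 95% counting intervals of the ratio without the added CPM, so for Myt1l and Shank2, with few UMIs in radial glia, they reach to 1 side. Myt1l, Auts2, Asxl3, Kdm6b and Ank2 lie beyond the upper dashed line of 1.5-fold in all 3 libraries, and Ctnnb1 lies beyond the lower one.

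Among transcription factors and cofactors, Myt1l had the highest ratio of all members. It encodes a zinc finger factor that represses non-neuronal genes in neurons. Its level in radial glia was 13.4 CPM (77 UMIs), 0.460 CPM (16 UMIs) and 1.87 CPM (45 UMIs), and in newborn neurons 325, 171 and 249 CPM. The log2 ratios with 1 CPM added were 4.50, 6.88 and 6.45, and without it the fold intervals ran from 19.4 to 30.9, from 228 to 653 and from 99.5 to 184. Each newborn value lay above each radial glia value. In the libraries labelled E16 and E18 Myt1l passed the level minimum through newborn neurons alone, so it had to differ there, and the size of these ratios rests on the few UMIs in radial glia. With a stricter cell filter followed by new clustering, described with Ank2 below, the log2 ratios were 1.03, 3.67 and 5.57. In intermediate progenitors Myt1l was at 13.6, 9.87 and 9.03 CPM, and newborn neurons exceeded these cells by log2 ratios of 4.48, 3.98 and 4.64. The log2 ratios of intermediate progenitors to radial glia were 0.02, 2.90 and 1.81, the latter 2 on 16 and 45 UMIs in radial glia.

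Radial glia of the library labelled E14 held more Myt1l than those of the other 2 libraries. The summed level of 12 markers of maturing excitatory neurons moved with it, at 477.0, 95.86 and 160.5 CPM in radial glia. The part of neuronal RNA in the Myt1l level of radial glia was not tested. With every cell thinned to 2000 UMIs, Myt1l was detected in 3.29% (interval 1.76 to 5.56%) of radial glia in the library labelled E14, 0.234% in that labelled E16 and 0.355% in that labelled E18. In newborn neurons the shares were 42.8%, 26.4% and 38.5%. A mixed cluster of vascular and immune cells, which should lack Myt1l, had it in 1 of 66 cells (1.52%), with a median depth of 16867 UMIs against 7614, 8553 and 7972 in newborn neurons. Those 66 cells were pooled over the libraries, at 21, 26 and 19 cells. The newborn neuron shares lay above the interval of that share (0.0384 to 8.16%), and the shares in radial glia and intermediate progenitors (1.91 to 2.21% in the latter) lay within it. With that stricter filter and new clustering, the newborn neuron shares were 5.00% (1.04 to 13.9%), 2.75% (0.571 to 7.83%) and 19.9% (16.5 to 23.6%), so only that of the library labelled E18 lay above the interval. Summed over its cells, the cluster held Myt1l at 19.0 CPM (13 UMIs), 0 and 11.9 CPM (5 UMIs). Radial glia and intermediate progenitors of the libraries labelled E14 and E18 thus did not exceed it.

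Auts2, which in neurons joins a Polycomb complex that activates transcription, was higher already in intermediate progenitors. Its level was 56.95, 74.2 and 107.7 CPM in radial glia, 227.5, 174.3 and 322.4 CPM in intermediate progenitors and 305, 295 and 495 CPM in newborn neurons. The log2 ratio of newborn neurons to radial glia was 2.40 (2.26 to 2.59), 1.98 (1.90 to 2.08) and 2.19 (2.13 to 2.27). Most of that difference was already present in intermediate progenitors, whose log2 ratios to radial glia were 1.98, 1.22 and 1.57. The share of cells with an Auts2 UMI at 2000 UMIs followed the same order, at 9.11%, 13.1% and 17.2% of radial glia, 31.8%, 27.8% and 43.1% of intermediate progenitors and 42.1%, 38.9% and 58.6% of newborn neurons.

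Ctnnb1 encodes beta-catenin, which joins cadherins to the cytoskeleton and carries Wnt signals to the nucleus. It fell along the lineage, from 332, 299 and 354 CPM in radial glia through 224, 249 and 278 CPM in intermediate progenitors to 144, 190 and 217 CPM in newborn neurons. The log2 ratio of newborn neurons to radial glia was -1.20 (-1.30 to -1.11), -0.65 (-0.74 to -0.56) and -0.71 (-0.78 to -0.64). The lowest radial glia value lay above the highest newborn neuron value. The 1.5-fold call ended in the library labelled E18 at a coarser clustering (log2 ratio -0.57) and in that labelled E16 at a finer clustering (-0.57) and under median-of-ratios scaling (-0.57), and with a stricter cell filter the ratios were -0.82, -0.46 and -0.42, while the direction held under all alternatives run.

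The other 6 transcription factors and cofactors differed less or differently by library. Med13l, a subunit of the Mediator kinase module, had log2 ratios of newborn neurons to radial glia of 0.91, 0.17 and 0.86. Tcf20, a chromatin-associated coregulator, had 0.88, -0.17 and 0.51, and the first of these turned to -0.06 under the stricter filter with new clustering. Foxp1, a forkhead repressor, had 0.17, -1.05 and -0.07, so it was over 1.5-fold lower in the library labelled E16 and within 1.5-fold in the other 2. Tcf4, a bHLH partner of proneural factors, had 0.47, -0.25 and 0.22. Tbl1xr1 and Wac, a corepressor subunit and an adaptor of histone ubiquitination, were lower in all 3 libraries by less than 1.5-fold, at -0.17 to -0.32 and -0.26 to -0.44.

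Among the histone modification genes, Asxl3 and Kdm6b were higher in newborn neurons. Asxl3 is a partner of the enzyme that removes ubiquitin from histone H2A in Polycomb-bound chromatin. Its level was 7.47, 22.8 and 18.5 CPM in radial glia, 20.1, 39.05 and 48.4 CPM in intermediate progenitors and 55.0, 71.3 and 72.7 CPM in newborn neurons. The log2 ratio of newborn neurons to radial glia was 2.73 (2.43 to 3.36), 1.60 (1.47 to 1.82) and 1.92 (1.80 to 2.15), widest in the library labelled E14, where only 43 UMIs came from radial glia.

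Kdm6b encodes a demethylase that removes the repressive mark left by Polycomb. It stood at 48.3, 56.3 and 55.7 CPM in radial glia, 98.7, 93.1 and 113.2 CPM in intermediate progenitors and 152, 137 and 174 CPM in newborn neurons. The log2 ratio of newborn neurons to radial glia was 1.63, 1.27 and 1.62, with intervals of 1.47 to 1.84, 1.16 to 1.41 and 1.54 to 1.74. The radial glia values of the 3 libraries were close, and each library showed the same order of classes. At 2000 UMIs, 9.37%, 10.2% and 10.5% of radial glia and 25.9%, 23.4% and 28.8% of newborn neurons had a Kdm6b UMI.

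The other 6 histone modification genes stayed within 1.5-fold in every library. Kmt5b, a histone methyltransferase, came closest, at log2 ratios of 0.57, 0.53 and 0.58, and passed 1.5-fold in all 3 libraries when levels were scaled by median of ratios. Ash1l and Setd5, a histone methyltransferase and a SET domain protein, were lower in all 3 libraries, at -0.34, -0.46 and -0.29 and at -0.16, -0.51 and -0.37. Kmt2a, Kmt2c and Phf21a, 2 histone methyltransferases and a reader in a demethylase complex, lay between -0.40 and 0.08.

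Of the 5 chromatin remodelling genes, 0 passed 1.5-fold in all 3 libraries. Arid1b, a subunit of the BAF remodelling complex, had the highest values of the group, at log2 ratios of 0.94, 0.12 and 0.45. Its level rose from 52.1 to 100.5 CPM in the library labelled E14, from 49.4 to 53.7 CPM in that labelled E16 and from 52.3 to 71.8 CPM in that labelled E18. Adnp, a homeobox protein that works with the remodeller Chd4, had ratios of 0.49, 0.04 and 0.45. The remodeller Chd8, among the genes most often hit in autism cohorts, had 0.07, -0.16 and 0.12, the lowest of the group, from levels of 86.6, 87.9 and 85.8 CPM in radial glia to 90.9, 78.7 and 93.2 CPM in newborn neurons. Chd2, its relative, and Pogz, a zinc finger protein of heterochromatin, lay between -0.07 and 0.35.

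Of the 4 genes for protein modification and turnover, 0 passed 1.5-fold in all 3 libraries. Naa15, a subunit of the complex that acetylates new proteins, was the lowest, at 127.1, 139.5 and 148.9 CPM in radial glia and 87.3, 87.3 and 107.6 CPM in newborn neurons, with log2 ratios of -0.54, -0.67 and -0.47. Dyrk1a, a kinase, and Cul3, the scaffold of a ubiquitin ligase, were lower by -0.16 to -0.31. Trip12, a ubiquitin ligase, had -0.08, 0.01 and 0.25, the highest of the group.

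Tsc1 and Tsc2 encode the partners of the complex that restrains mTOR and so growth. Tsc1 was at 13.4, 11.1 and 13.03 CPM in radial glia and 20.6, 14.7 and 22.3 CPM in newborn neurons, at log2 ratios of 0.59, 0.38 and 0.73. Tsc2 had 0.31, -0.08 and -0.12. The Tsc1 ratio passed 1.5-fold in the libraries labelled E14 and E18 and lay above that of Tsc2 in all 3 libraries, with overlapping intervals in those labelled E14 and E16.

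The membrane adaptor Ank2 anchors channels and adhesion molecules to the spectrin skeleton of axons. Its level was 87.0, 47.5 and 78.5 CPM in radial glia and 167.8, 124.6 and 139.6 CPM in newborn neurons. The log2 ratios were 0.94 (0.81 to 1.09), 1.37 (1.26 to 1.52) and 0.82 (0.73 to 0.93), and every newborn value lay above every radial glia value. This call did not hold under all alternatives run. At a coarser clustering the ratio in the library labelled E18 was -0.35, and with a stricter cell filter (at least 2000 genes and at most 5% mitochondrial UMIs) followed by new clustering it was -1.14, -1.57 and 0.22. In that clustering the newborn class kept 60, 109 and 518 cells, and it took in a dividing cluster led by Neurod1 and Ube2c. With the same strict filter and the class names kept, the ratio was 1.07 and 1.04 in the libraries labelled E16 and E18. The library labelled E14 kept 17 newborn neurons, too few for a value, so filter and clustering cannot be told apart there.

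**Figure D3:**
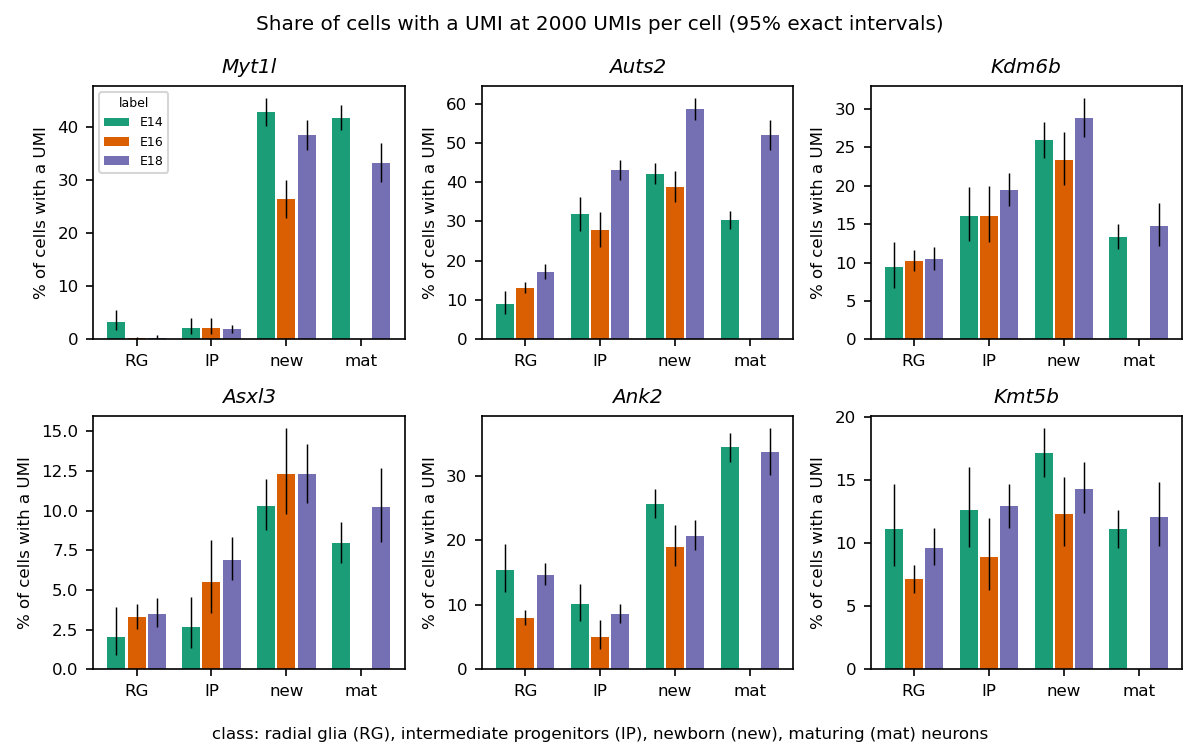
Share of cells with at least 1 UMI of Myt1l, Auts2, Kdm6b, Asxl3, Ank2 and Kmt5b (y axis, percent) after thinning each cell to 2000 UMIs, in radial glia (RG), intermediate progenitors (IP), newborn (new) and maturing (mat) excitatory neurons of the libraries labelled E14, E16 and E18. Bars are shares and lines 95% exact binomial intervals. In all 6 genes the interval in newborn neurons lies above that in radial glia in each library.

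Seen as shares of cells, 6 of the 30 members tested had an interval in newborn neurons wholly above that in radial glia in all 3 libraries, against 10.5% of all genes at the same level minimum. They were Myt1l, Auts2, Kdm6b, Asxl3, Ank2 and Kmt5b. Kmt5b was found in 11.1%, 7.12% and 9.64% of radial glia and in 17.1%, 12.3% and 14.3% of newborn neurons. In the mixed vascular and immune cluster it was found in 6.06% of cells, with an interval of 1.68 to 14.8% that covered the radial glia values and the newborn neuron values of the libraries labelled E16 and E18. Of the others, Auts2 was found there in 3.03% and Kdm6b in 1.52% of cells, and Asxl3 and Ank2 in 0 of 66 cells, with intervals up to 5.44%. Without thinning, 4 members kept this order, without Ank2 and Kmt5b. Radial glia then had a median of 13006, 14685.5 and 12677.5 UMIs per cell, more than newborn neurons, a difference in depth that the thinned shares do not have. With the strict filter and new clustering, Auts2 alone kept this order.

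For some members the level in intermediate progenitors did not lie between those of radial glia and newborn neurons. At least 1.5-fold above radial glia in all 3 libraries were 3 of 30 members, Auts2, Asxl3 and Kdm6b, against 5.92% of all genes. At least 1.5-fold below were 3 others, Nlgn3, Tbl1xr1 and Ank2, against 9.23%. These 3 were then at least 1.5-fold higher in newborn neurons than in intermediate progenitors in all 3 libraries, as was Myt1l, against 10.7% of all genes. Both steps use the same intermediate progenitor values, which favours opposite signs. Lower than both neighbouring classes in all 3 libraries were thus 3 of 30 members, against 0.823% of all genes tested at both steps. From intermediate progenitors to newborn neurons, 0 of 30 were at least 1.5-fold lower, against 11.2%.

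Nlgn3, a postsynaptic adhesion molecule, showed the deepest dip. It was at 19.1, 12.3 and 15.8 CPM in radial glia, 5.59 CPM (30 UMIs), 2.47 CPM (12 UMIs) and 3.07 CPM (47 UMIs) in intermediate progenitors and 14.7, 17.6 and 13.8 CPM in newborn neurons. The log2 ratios of intermediate progenitors to radial glia were -1.61 (-2.41 to -1.18), -1.94 (-3.28 to -1.50) and -2.04 (-2.83 to -1.92). In the libraries labelled E16 and E18 Nlgn3 passed the level minimum through the neighbouring classes alone, so it had to differ there. Levels in intermediate progenitors did not overlap with those of either neighbouring class, and the step held past 1.5-fold under the stricter filter and under coarser and finer clustering.

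Tbl1xr1, a subunit of the NCoR corepressor, showed the same shape. It was at 40.5, 43.9 and 44.9 CPM in radial glia, 17.7, 22.6 and 20.6 CPM in intermediate progenitors and 32.2, 38.8 and 39.8 CPM in newborn neurons. The log2 ratio of intermediate progenitors to radial glia was -1.15, -0.93 and -1.09. Under the stricter filter with new clustering it was -0.47 in the library labelled E14, and the return in newborn neurons turned to -0.21 and -0.17 in those labelled E14 and E16. With class names kept, the ratios were -0.67, -0.98 and -1.08.

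Ank2 fell to 50.8, 27.3 and 44.5 CPM in intermediate progenitors, a log2 ratio to radial glia of -0.76, -0.78 and -0.81. All 3 values were close, and within the excitatory lineage each library had its lowest Ank2 level in this class. The return in newborn neurons, at 1.70, 2.15 and 1.63, turned to -0.25 and -0.23 in the libraries labelled E14 and E16 under the stricter filter with new clustering.

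**Figure D4:**
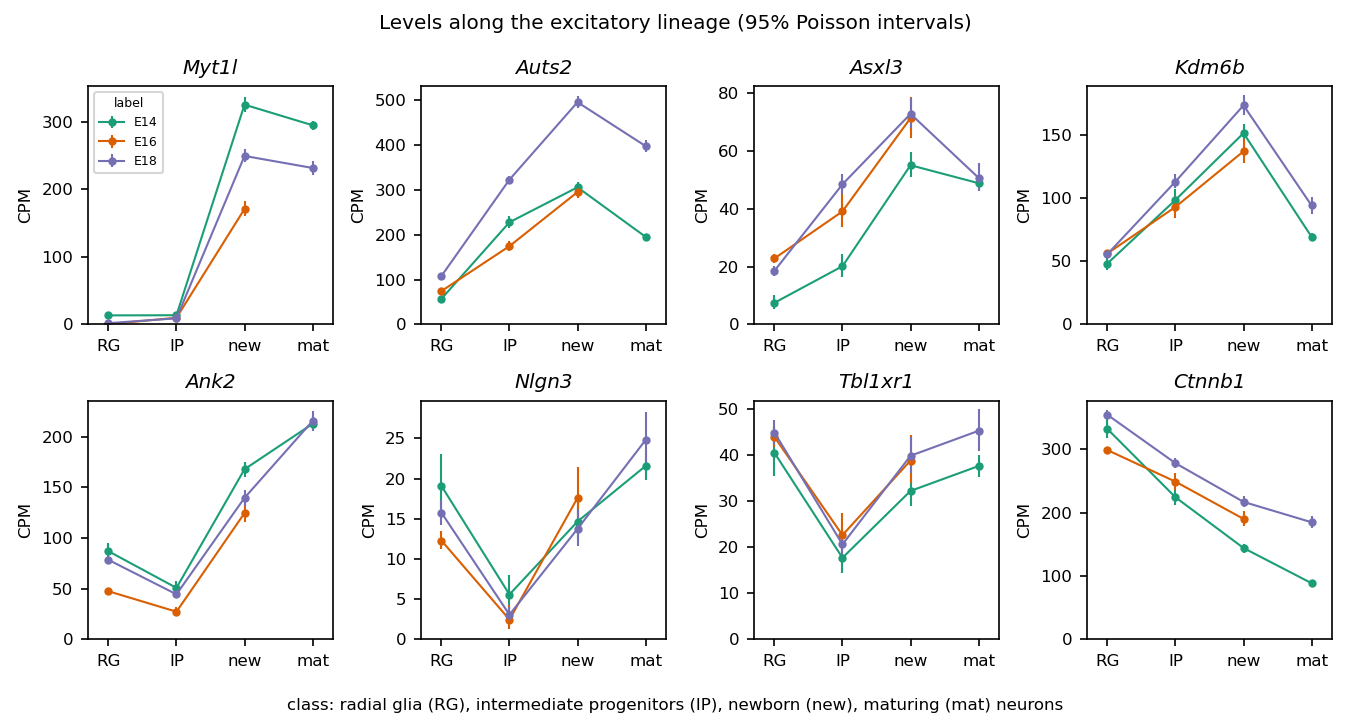
Level in CPM (y axis, from 0, a separate scale per gene) of 8 members in radial glia (RG), intermediate progenitors (IP), newborn (new) and maturing (mat) excitatory neurons, with 1 line per library label and 95% Poisson intervals. The library labelled E16 had no maturing neurons. Myt1l is at 13.6 CPM or less up to intermediate progenitors, Auts2, Asxl3 and Kdm6b climb in steps and are lower again in maturing neurons, Ank2, Nlgn3 and Tbl1xr1 are lowest in intermediate progenitors, and Ctnnb1 descends.

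Maturing neurons could be compared with newborn neurons in the libraries labelled E14 and E18. Of 31 members tested, 2 were at least 1.5-fold higher in both, Foxp1 and Shank2, against 7.07% of all genes, and 2 at least 1.5-fold lower, Kdm6b and Tcf4, against 7.26%. By any amount, 23 of 31 were lower in both libraries, against 46.2% of all genes, and 6 were higher, against 33.2%. All 5 chromatin remodelling and all 8 histone modification genes were among the 23. Among the lists of related genes described at the end, some leaned the same way and not all. Of 35 paralogs and partners of the members, 27 were lower and 3 higher. Of 28 other risk genes for gene regulation, 19 were lower and 3 higher. Of 16 for the cytoskeleton and signalling, 5 were lower and 6 higher. A further list is not reported here, so this lean is not one of related genes in general. With median-of-ratios scaling 22 members were lower, with the same 13 among them. The newborn cells compared were mostly an upper layer-like cluster in the library labelled E14. In that labelled E18 they were a cluster given no layer name, so these counts were not made at matched layer identity. In these 2 libraries, deep layer markers summed to 1472 and 3536 CPM in newborn and 2260 and 5368 CPM in maturing neurons. Upper layer markers summed to 2316 and 1002 CPM in newborn and 1844 and 722.6 CPM in maturing neurons. The library labelled E14 alone held upper layer-like clusters of both classes, which were compared after the data had been seen. There 25 of 31 members were lower by any amount, against 59.6% of all genes, and 6 were higher, against 40.4%, and the same 5 chromatin remodelling and 8 histone modification genes were among the lower ones. At 1.5-fold, 4 members were lower (8.96% of all genes) and 2 were higher (6.18%), and Kdm6b at -0.77, Tcf4 at -0.75, Foxp1 at 1.23 and Shank2 at 0.63 were among these 6, with Phf21a and Ctnnb1, both lower. Dissociation stress genes and globins were lower in maturing neurons. From newborn to maturing neurons, 10 dissociation stress genes went from 359.3 to 144.8 CPM in the library labelled E14 and from 348.8 to 154.0 CPM in that labelled E18, and 12 globins from 1299 to 80.84 CPM and from 327.4 to 224.7 CPM. Their part in the counts was not tested.

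Kdm6b stood at 152 and 174 CPM in newborn and 69.4 and 94.3 CPM in maturing neurons, log2 ratios of -1.12 and -0.87. In both libraries it was higher in newborn neurons than in the other 3 classes of the lineage. Tcf4 stood at 2973 and 3300 CPM in newborn and 1453 and 1198 CPM in maturing neurons, log2 ratios of -1.03 and -1.46. Both calls ended under the stricter filter with new clustering, at -0.09 and -0.52 for Kdm6b and -0.36 and -0.83 for Tcf4. With class names kept, the library labelled E18 gave -0.78 for Kdm6b and -1.25 for Tcf4.

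Foxp1, which marks several sets of cortical projection neurons, moved the other way. It stood at 64.6 and 104.0 CPM in newborn and 177 and 172 CPM in maturing neurons, log2 ratios of 1.44 (1.34 to 1.57) and 0.72 (0.61 to 0.84). Shank2 rose from 6.77 and 4.39 CPM to 11.1 and 11.7 CPM, log2 ratios of 0.64 and 1.23, on 78 and 46 UMIs in newborn neurons. In the library labelled E18 Shank2 passed the level minimum through maturing neurons alone. The 3 synapse and membrane members tested, Shank2, Nlgn3 and Ank2, were all higher in maturing neurons of both libraries, Nlgn3 by 0.53 and 0.81 and Ank2 by 0.34 and 0.62. Myt1l changed little, by -0.14 and -0.11. The Foxp1 call ended in the library labelled E18 when 2 times as many doublets were removed (0.52), and the Shank2 call ended in that labelled E14 with 5 CPM added to each level (0.46).

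The library labelled E14 held both upper and deep layer-like maturing neurons. Of 31 members, 2 were at least 1.5-fold lower in the deep layer-like cells, against 5.16% of all genes, and 0 were higher, against 7.27%. Myt1l was at 200.6 CPM in deep and 371.6 CPM in upper layer-like cells, a log2 ratio of -0.89 (-0.96 to -0.82), and Tcf4 had a ratio of -0.77. Deep layer-like neurons of the library labelled E18 were also compared with those of the library labelled E14. These were different clusters. One, with Nts, Igfbp3 and Lmo3 among its leading genes, had 719 of its 729 cells in the library labelled E14. The other, with Hs3st4, Cdh13 and Sox5 among its leading genes, had 670 of its 671 cells in that labelled E18. Neuron identity and library therefore cannot be told apart here. There 4 members were higher, against 8.40% of all genes, and 0 of 31 were lower, against 5.88%. In the library labelled E14 and then that labelled E18, Auts2 was at 167.6 and 398.7 CPM, Ctnnb1 at 86.5 and 186.8 CPM, Kdm6b at 57.3 and 93.7 CPM and Kmt2a at 89.0 and 134.2 CPM.

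Between libraries, within radial glia, 8 of 29 members differed at least 1.5-fold in at least 1 pair, against 26.0% of all genes, and 5 in at least 2 pairs, against 13.5%. Both shares were near those of all genes. By any amount, the library labelled E18 had the highest value for 17 of the 29 members, against 24.7% of all genes. It was highest for 18 of 29 members in intermediate progenitors (24.9%) and 17 of 31 in newborn neurons (30.1%). The radial glia came from different clusters in the library labelled E16 than in the other 2. Asxl3 (7.47, 22.8 and 18.5 CPM) and Foxp1 (57.5, 100.6 and 109.2 CPM) were lowest in the library labelled E14. Kmt2c (120.3, 68.4 and 107.6 CPM), Cul3 (162.5, 97.9 and 159.2 CPM) and Ank2 (87.0, 47.5 and 78.5 CPM) were lowest in that labelled E16. Only Asxl3 was still called at 2-fold. Under the stricter filter with new clustering, the Kmt2c difference between the libraries labelled E18 and E16 turned from 0.65 to -0.23, and with class names kept all 8 members were called.

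In intermediate progenitors 8 of 29 members differed in at least 1 pair, against 31.7% of all genes, and 5 in at least 2 pairs, against 16.5%. These 5 were Kmt2c, Asxl3, Tcf4, Cul3 and Ank2. Cul3 was at 139.6, 90.0 and 146.1 CPM and Tcf4 at 2469, 1222 and 2618 CPM, both lowest in the library labelled E16.

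In newborn neurons 12 of 31 members differed in at least 1 pair, against 28.4% of all genes, and 5 in at least 2 pairs, against 15.2%. Adnp (223, 132 and 218 CPM), Tcf4 (2973, 1296 and 3300 CPM) and Cul3 (145.1, 81.0 and 139.1 CPM) were low in the library labelled E16 and close in the other 2. Foxp1 (64.6, 48.1 and 104.0 CPM) and Auts2 (305, 295 and 495 CPM) were highest in that labelled E18. The library labelled E16 had the lowest value for 23 of the 31 members, and for 44.5% of all genes. The same library was lowest for 15 of 29 members in radial glia (46.6% of all genes) and 16 of 29 in intermediate progenitors (46.3%). Its newborn cluster, led by Calb1 and Lhx9, also held 307.6 CPM of Cajal-Retzius markers against 10.8 and 11.7 CPM, and 387.1 CPM of preplate or subplate markers against 51.3 and 108.4 CPM. The part of cell identity in these differences was not tested. At 2-fold, Tcf4 and Foxp1 alone were called, and the Foxp1 ratio of the libraries labelled E18 and E14, 0.68, was 0.21 at the coarser and 0.23 at the finer clustering.

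**Figure D5:**
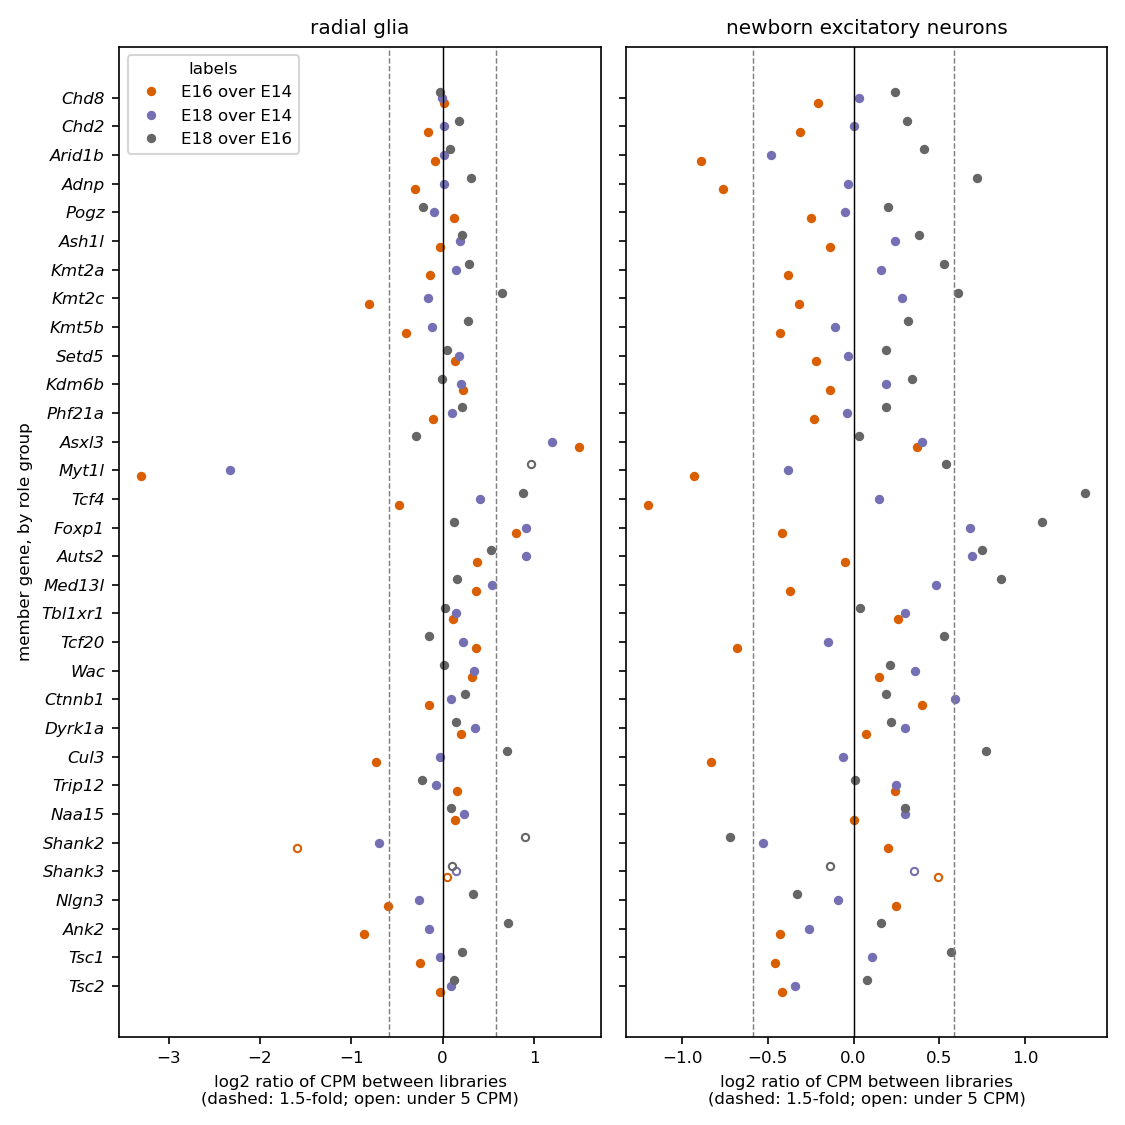
Log2 ratio of levels between libraries (x axis, 1 CPM added) for each member (y axis, by role group) in radial glia (left) and newborn excitatory neurons (right), for the 3 pairs of labels (colours). Dashed lines mark 1.5-fold and open points lie under 5 CPM. Cul3 is lower in the library labelled E16 in both panels, at -0.73 and -0.83 against that labelled E14.

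Outside the excitatory lineage, Shank2 was called higher in the GABAergic lineage and in choroid plexus cells, on 75 UMIs or fewer in those cells. It was higher in cells of the GABAergic lineage than in newborn excitatory neurons of the same library, at log2 ratios of 1.47, 1.16 and 2.59, on 7, 11 and 12 UMIs. In the library labelled E18 it passed the level minimum through the GABAergic cells alone, so it had to differ there. It was higher in choroid plexus cells than in radial glia, at 2.42 and 3.09 in the libraries labelled E16 and E18, on 42 and 75 UMIs. In both libraries it passed the level minimum through choroid plexus cells alone, so it had to differ there too. Auts2 was lower in the GABAergic lineage than in newborn neurons, at -1.37, -0.73 and -1.65, as was Ank2, at -0.66, -0.62 and -0.77. Of 31 members tested, 2, 4 and 3 were at least 1.5-fold higher in the GABAergic lineage, against 17.8%, 12.9% and 19.1% of all genes. At least 1.5-fold lower were 9, 5 and 5, against 21.0%, 17.3% and 21.7%. These groups held 56, 73 and 69 cells. In opposite directions in different libraries were 3 of 31 members, against 7.75% of all genes.

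In choroid plexus cells, 12 of 31 members were at least 1.5-fold lower than in radial glia of the library labelled E18 (30.0% of all genes) and 3 of 30 in that labelled E16 (14.6%). Higher were 2 in each, against 29.0% and 26.9%, Shank2 in both, with Kdm6b in that labelled E16 and Myt1l in that labelled E18. That Myt1l level was 9.06 CPM (15 UMIs), below the 11.9 CPM of the vascular and immune cluster in the same library, and it passed the level minimum through choroid plexus cells alone, as Shank2 did in both libraries. Tcf4 was at -2.85 and -1.30 and Ank2 at -1.88 and -1.32. In meningeal fibroblasts of the library labelled E16, 11 of 29 members were lower than in radial glia (26.6% of all genes) and 2 were higher (24.7%), Ank2 at 1.88 and Asxl3 at 0.71. In erythroid cells of that library all 29 members tested were lower, as were 94.6% of all genes, and 0 were higher, against 3.06%. Cajal-Retzius cells of the library labelled E18 had 5 of 30 members lower than newborn neurons (10.6% of all genes), among them Foxp1 at -1.84, Tcf4 at -1.22 and Kdm6b at -1.12, and 1 higher (21.9%), Ctnnb1 at 0.59. Those labelled E16 had 3 of 31 lower (7.34%) and 2 higher (14.4%), Myt1l at 0.71 and Ctnnb1 at 0.62.

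Lists of related genes were set beside the 32 for the step from radial glia to newborn neurons. Of 36 paralogs and partners of the members, 34 were tested, and 8 were higher and 6 lower at 1.5-fold in all 3 libraries, where 14.3% of all genes were higher and 19.9% lower. Of 29 other autism risk genes for gene regulation, 3 were higher, namely Chd3, Bcl11a and Kdm5b, and 4 were lower. Of 16 other risk genes for the cytoskeleton and signalling, 4 were higher and 2 lower.

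In the RefSeq annotation, 18 of the 32 members overlap another gene and 9 overlap a protein-coding gene. Among those with values above, Adnp overlaps Dpm1, Foxp1 overlaps Eif4e3, Tsc2 overlaps Pkd1, Ash1l overlaps Dap3, Trip12 overlaps Fbxo36, Shank3 overlaps Acr, Kmt2c overlaps 4 coding genes, and Tcf20 and Shank2 each overlap a coding locus with no gene name. Whether counting used strand is not given in the sources used here, so part of their UMIs may belong to the neighbour.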

How the data were processed

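The deposited files hold raw UMI counts per gene and cell barcode for 3 libraries, made by the authors with Cell Ranger 6.0.1 on build mRatBN7.2, per the submitters' processing notes. The members and gene lists were chosen with earlier results of these data known. Cells with at least 1000 genes and at most 10% mitochondrial UMIs were kept, and the highest Scrublet scores were removed at 0.8% per 1000 cells. Cells were clustered with scanpy 1.11.5 (2000 variable genes without any listed gene, 30 components, 15 neighbours, Leiden resolution 1), and 24 of 26 clusters were named from 151 fixed markers. For each class of a library the UMIs of all its cells were added up, and levels are given as CPM of that sum with an exact Poisson interval. Log2 ratios had 1 CPM added, and their intervals are exact conditional binomial intervals. A gene was tested where the mean of the 2 levels reached 5 CPM and each class held at least 50 cells, and called at 1.5-fold. Shares of cells used 2000 UMIs per cell, leaving out shallower cells, with Clopper-Pearson intervals. Members are named with values in every library where called in all libraries or in 2 of 3 library pairs, or where highest or lowest in a role group. The calculation was tested on simulated data. Alternatives changed the cell filter, doublet rate, clustering, level minimum, pseudocount, scaling, cells counted, averaging and fold. RefSeq names and promoters are of build GRCr8, and none of its coordinates was joined to the counts. A further list of genes set beside the members is not reported here.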

Additional observations from a re-analysis of the deposited data

Results flagged for a closer look

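In cells of the GABAergic lineage set against newborn excitatory neurons of the same library, 3 of 31 members passed 1.5-fold in opposite directions in different libraries, against 7.75% of all genes. Foxp1 had log2 ratios of 1.05 (46 UMIs in GABAergic cells) in the library labelled E14, -0.62 (18 UMIs) in that labelled E16 and -4.07 (2 UMIs) in that labelled E18. Pogz had -1.84 (2 UMIs) in the library labelled E14 and 0.66 (14 UMIs) in that labelled E18. Trip12 had -0.87 (12 UMIs) in the library labelled E14 and 0.71 (74 UMIs) in that labelled E16. The differences between libraries were not tested, since each label has 1 library.

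Barcodes left out by the cell filter or as doublets also carried the members' UMIs. Summed over the 32 members, they held 4163, 2781 and 4797 CPM in the libraries labelled E14, E16 and E18, against 4639, 3316 and 5288 CPM in the cells kept and 0.302 to 0.339 CPM for a count of 3.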

How the results depend on the processing

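No paired analysis was possible because each label has 1 library and no replicate number pairs libraries, and classes were compared within each library. The 6 members called from radial glia to newborn neurons became 10 with mitotic cells left out, a setting that could be fitted in 2 libraries, and 4 (Myt1l, Auts2, Asxl3, Kdm6b) were called under every alternative run. The 8 members that differed between libraries in radial glia became 5 with the stricter cell filter followed by new clustering, 5 with mitotic cells left out (1 pair of libraries) and 1 at 2-fold. The 12 in newborn neurons became 2 at 2-fold, and the 4 from newborn to maturing neurons became 1 at 2-fold. The 6 members whose share of cells was higher in newborn neurons became 1 with the stricter filter. Among 118 single ratios past 1.5-fold, recomputed to 1589 alternative values, 1290 stayed within the counting interval of the value reported, 284 moved and 15 reversed. From radial glia to newborn neurons Ank2 reversed to -0.35 (library labelled E18, coarser clustering), and with the stricter filter to -1.14 and -1.57 (E14, E16), and Tcf20 to -0.06 (E14). The other reversals with that filter were Ank2 -0.25 and -0.23, Tbl1xr1 -0.21 and -0.17 (E14, E16), Asxl3 -0.05 and Shank2 -0.20 (E14) from intermediate progenitors to newborn neurons, and between libraries Arid1b 0.03, Tcf20 0.40 and Shank2 0.13 in newborn neurons and Kmt2c -0.23 in radial glia. With mitotic cells left out, Shank2 in radial glia (E18 over E14) went to 0.00. The stricter filter kept 322 cells of the library labelled E14. With the class names kept (chosen after seeing the data), no ratio that could be computed reversed. That setting left 17 newborn and 43 maturing neurons in the library labelled E14, under the minimum of 50 cells. Ratios with these classes, reversals listed above among them, could therefore not be recomputed. Other causes were not tested. Ratios of members under about 20 CPM rest on few UMIs.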
